A study of Mus musculus with 29 samples.

Results

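The 8 gene models described here, Gm2016, Gm2022, Gm4027, Gm5662, Gm8300, Gm5039, Gm20767 and Gm8994, are mouse genes that carry only a provisional number in the deposited tables and have been listed among transcripts of the 2-cell-like state. They were taken by name out of 24394 gene rows in the 4 deposited count tables, and all 8 had a row in each table. The names were chosen by their counts in these same libraries, so levels and folds of the 8 models are a description in every comparison, and a count of models past a threshold is no support.

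The 20 RNA-seq libraries were made from 129/Ola mouse ES cells, that is embryonic stem cells of that strain, kept on gelatin in medium with 15% serum, and formed 10 groups of 2. In the first experiment, 2 lines labelled Trim66 knockout (KO1 and KO2) were set against wild type. In the second, cells expressing TRIM66 fused to green fluorescent protein (GFP-TRIM66) were set against cells with a GFP vector. In the third, knockdown of Dax1 with 1 of 2 hairpins (sh1 and sh2) was set against a control labelled wild type, and in the fourth a combined knockdown of Dax1 and Dux was set against a control of its own, also labelled wild type. Dax1 is the other name of Nr0b1, a nuclear receptor gene. All groups were labelled untreated, and no label says how a knockout line was made, whether it is a single clone, or whether the 2 libraries of a group came from separate cultures. The spread between replicates may therefore be technical.

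In mouse ES cell cultures, a small share of the cells at any time transcribes genes that are normally active in the embryo at the 2-cell stage, around the first wave of transcription from the embryo's own genome. The homeobox factor DUX is known to bind and switch on many of these genes, among them the Zscan4 cluster, Zfp352 and the Tcstv genes, together with the endogenous retrovirus MERVL. Many genes of this programme occur as tandem or dispersed near-identical copies, so that a short sequencing read can match several of them. How such reads were divided between copies in the deposited tables is not given in the sources used here. For that reason each model was read both alone and as part of the sum of the 8 rows, which does not depend on how reads were divided among those 8.

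On the genome, 6 of the models lie in 1 stretch of chromosome 12 (GRCm38.p6 annotation of RefSeq), running from Gm8300 at chr12:87514316-87518265 through Gm4027 (chr12:87617797-87622288), Gm2016 (chr12:87874072-87877859), Gm2022 (chr12:87892834-87896722) and Gm5662 (chr12:88270635-88274497) to Gm5039 at chr12:88320122-88321762. The stretch is 807.4 kb long, and RefSeq places 60 genes in it, of which 43 are pseudogenes. Gm5039 is annotated as a transcribed pseudogene, and the other 7 models as protein-coding. Gm20767 lies apart at chr13:120140246-120155335. Gm8994 lies at chr6:136327539-136329983 and is named Eif4a3l1 in RefSeq, after Eif4a3, the gene of an RNA helicase of the exon junction complex. The reference gives no function for the other models and none is stated here.

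RefSeq held a promoter sequence, 250 bases before to 50 bases after an annotated start, for 2 of the 8 models. They are shown because they allow the models to be compared with other genes by sequence rather than by level. Capitals mark the letters GATTNAAT, where N is any base, which occur within the sequence that mouse DUX is known to bind, and the letters TATA where they begin 15 to 45 bases before the start. Both were looked for after the promoters had been read, GATTNAAT on both strands. The Gm8994 promoter (GRCm38.p6, chr6:136327289-136327588, plus strand) and the Gm4027 promoter (GRCm38.p6, chr12:87618659-87618958, plus strand) read as follows.
Gm8994: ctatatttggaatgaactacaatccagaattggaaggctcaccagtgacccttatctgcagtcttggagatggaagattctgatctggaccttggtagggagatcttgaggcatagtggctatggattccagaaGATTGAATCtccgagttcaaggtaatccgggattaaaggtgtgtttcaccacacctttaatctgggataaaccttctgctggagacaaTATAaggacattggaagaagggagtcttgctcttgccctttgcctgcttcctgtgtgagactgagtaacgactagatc
Gm4027: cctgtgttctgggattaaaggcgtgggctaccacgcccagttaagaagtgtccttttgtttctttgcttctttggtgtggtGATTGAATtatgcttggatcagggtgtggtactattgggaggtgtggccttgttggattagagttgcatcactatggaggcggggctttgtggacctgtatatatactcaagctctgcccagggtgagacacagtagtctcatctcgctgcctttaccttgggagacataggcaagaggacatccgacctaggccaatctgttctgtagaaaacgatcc
In Gm8994 the letters GATTNAAT were found at 116 and, on the other strand, 115 bases before the start, as 2 overlapping matches, and TATA at 28 bases before it. In Gm4027 GATTNAAT was found at 169 bases before the start, with no TATA in that window. The letters TATA do occur in it farther before the start, outside the window, and are not marked. These 300 bases lie within the annotated span of Gm4027, so they are not the region before the whole gene. Of 32851 RefSeq mouse promoters of the same 300 bases, 1.96% held GATTNAAT and 6.72% held TATA in the window. A match describes the letters only, and no binding was measured here.

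Sequencing depth was between 12483949 and 17365296 counts per library. In the targeted genes, GFP-TRIM66 libraries had 3556 and 3267 Trim66 counts, against 27 and 24 in GFP vector libraries (log2 fold change 6.90, SE 0.284, edgeR quasi-likelihood adjusted p = 5.39e-04). The libraries labelled Trim66 knockout went against their label, with 35 and 38 Trim66 counts in KO1 and 33 and 48 in KO2, against 11 and 15 in wild type, and they are called by their label throughout. Whether these counts come from the deleted part of the gene is not given in the sources used here. Nr0b1 fell by 1.35 (SE 0.0586) with sh1 and by 0.99 (SE 0.0575) with sh2 on the log2 scale, with edgeR adjusted p values of 1.48e-16 and, for sh2, 3.40e-13. In the double knockdown Nr0b1 had 254 and 319 counts, against 680 and 444 in its control, and did not pass the test (log2 fold change -0.90, SE 0.233, edgeR adjusted p = 0.275). Dux had 2 and 0 counts in the double knockdown, against 0 and 0 in its control, so that its knockdown could not be read at this depth.

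ES cell markers (Pou5f1, Sox2, Nanog and 5 others) were present in every library, but the double knockdown experiment stood apart. The summed ES marker level was 2490 to 2763 CPM in double knockdown and 2774 to 3932 CPM in its control libraries, and 5067 to 8361 CPM in the other 16 libraries. Trophectoderm markers summed to 3352 and 3221 CPM in double knockdown, against 429 CPM in control replicate 1 and 2738 CPM in control replicate 2, while no library of the other experiments exceeded 487 CPM. Nearly all of this sum in double knockdown was in Krt8 (1864 and 1932 CPM) and Krt18 (1328 and 1127 CPM). Krt8 and Krt18 were at 1651 and 977 CPM in control replicate 2, against 258 and 125 CPM in control replicate 1. Cdx2 was at 18.5 and 23.0 CPM in double knockdown, against 3.42 and 6.35 CPM in control. Eomes did not rise, at 19.6 and 19.7 CPM, against 23.7 and 18.9 CPM in control. Control replicate 2 also had 87 Trim66 counts, against 4 in control replicate 1.

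In the libraries labelled Trim66 knockout all 8 models were far above wild type, and more so in KO2 than in KO1. Summed over the 8 rows, counts were 351 and 390 in KO1 and 970 and 1388 in KO2, against 16 and 28 in wild type. The summed level was 26.6 ± 0.122 CPM in KO1 and 77.4 ± 5.18 CPM in KO2, against 1.51 ± 0.518 CPM in wild type (SD, n = 2 each; CPM are counts scaled to a common library size by the trimmed mean of M values, TMM). Pooled over both lines the sum was 35.0-fold higher than in wild type, with a 95% counting interval of 26.0 to 48.3. These intervals, here and below, are exact binomial intervals on pooled counts, and they cover counting error only, not the spread between libraries. In bulk RNA such a rise can come from more cells in the 2-cell-like state or from more RNA per cell, which cannot be told apart here.

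**Figure D1:**
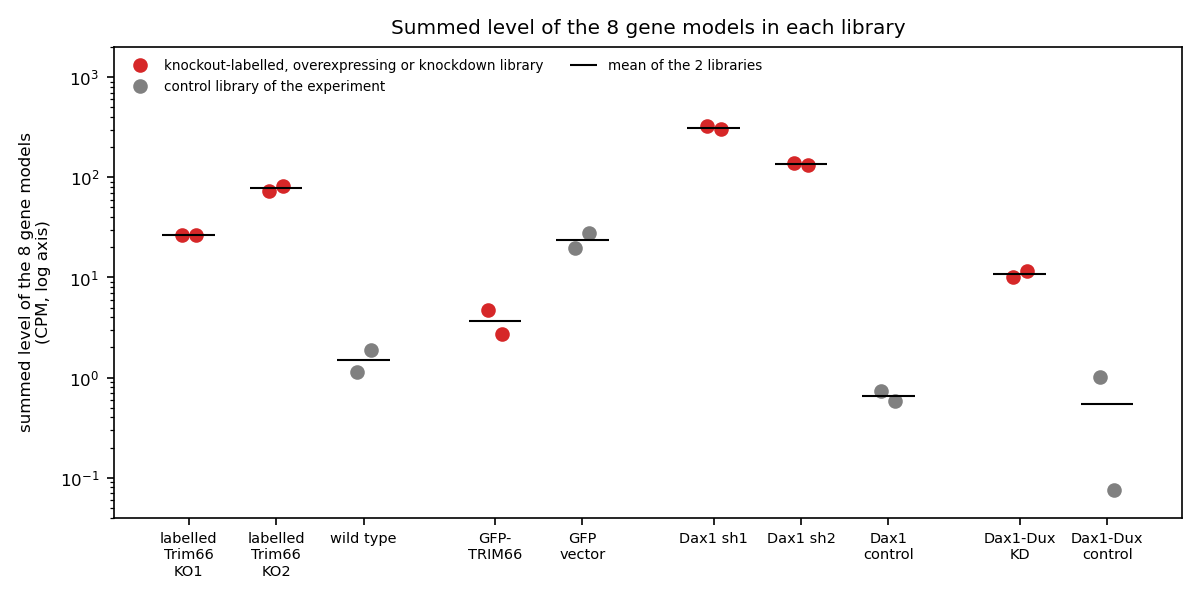
Summed level of the 8 gene models in each library, in TMM-scaled CPM on a log axis, with groups of the 4 experiments side by side; points are libraries and lines are means of 2. The sh1 libraries sit highest at 324 and 301 CPM, all libraries labelled knockout lie above wild type, and GFP-TRIM66 libraries lie below GFP vector libraries.

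The chromosome 12 models with the most counts showed the pattern clearly. Gm5662 had 92 and 87 counts in KO1 and 206 and 352 in KO2, against 4 and 11 in wild type, a pooled ratio of 24.4 (95% counting interval 14.7 to 43.8). Gm2016 had 79 and 66 counts in KO1 and 162 and 265 in KO2, against 0 and 6 in wild type, a ratio of 47.4 (21.6 to 130). The groups did not overlap for either model, nor for the other 6.

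The pseudogene Gm5039 had the smallest ratio, 16.2 (8.93 to 32.7), from 41 and 54 counts in KO1 and 95 and 168 in KO2, against 4 and 7 in wild type. Gm8300 had 37 and 47 counts in KO1 and 135 and 170 in KO2, against 2 and 0 in wild type, so its ratio of 96.6 was poorly bounded (26.6 to 801). Gm2022, with 21 and 37 counts in KO1 and 98 and 88 in KO2, against 4 and 0 in wild type, had a ratio of 30.3 (11.7 to 112). The intervals of these 3 models overlap only in part, and the low counts in wild type set most of their width.

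Gm4027, the least counted of the 8, had 5 and 12 counts in KO1 and 22 and 39 in KO2 and was at 0 in both wild-type libraries. That makes it at least 12.9-fold higher in the libraries labelled knockout, with the wild-type group set at 3 counts. The models outside chromosome 12 moved the same way. Gm8994, the Eif4a3-like gene, had 56 and 57 counts in KO1 and 183 and 201 in KO2, against 1 and 3 in wild type, a ratio of 61.7 (24.0 to 227). Gm20767 had 20 and 30 counts in KO1 and 69 and 105 in KO2, against 1 and 1 in wild type, a ratio of 55.6 (15.2 to 462).

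By edgeR's quasi-likelihood test, adjusted over all rows at a threshold of 0.05, 8 of 8 models were called higher for the mean of the lines, where 12.7% of the 15086 rows tested were called higher and 10.7% lower. The groups did not overlap and were higher in the labelled knockout for 18% of all rows. Nothing is read from that count, since the models were picked with this contrast known. Their median log2 fold change was 5.33, or 4.96 with Gm4027 at its bound, beside 0.01 over all rows tested. For the 5 models with more than 3 wild-type counts, fitted log2 fold changes ran between 3.80 for Gm5039 (SE 0.344) and 5.62 for Gm8994 (SE 0.367). Fibroblast markers were also higher in the libraries labelled knockout, at 234 to 282 CPM summed over 10 genes, against 138 to 150 CPM in wild type, and nearly all of the difference was in Vim, at 197 to 248 CPM, against 97.4 to 108 CPM in wild type. Lum was at 0 in all of these libraries. Trophectoderm markers summed to 194 and 190 CPM in KO1 and 83.1 and 73.4 CPM in KO2, against 52.2 and 53.5 CPM in wild type. Most of the KO1 difference was in Krt8, Krt18 and Tfap2c. In KO2 it was mostly in Tfap2c, at 51.5 and 43.9 CPM, against 25.7 and 26.6 CPM in wild type. Krt8 was not higher in KO2, at 10.9 and 12.4 CPM, against 13.2 and 13.4 CPM in wild type. Primitive endoderm markers summed to 12.2 and 8.84 CPM in KO1 and 30.6 and 28.7 CPM in KO2, against 42.4 and 40.7 CPM in wild type. The part of these 3 marker lists in the result was not tested.

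Between the lines, every model was higher in both KO2 libraries than in both KO1 libraries. The sum was 2.92-fold higher in KO2 (95% counting interval 2.69 to 3.18), and single models lay between 2.54-fold for Gm5039 and 3.33-fold for Gm8300. Of all rows, 30% lay wholly higher in KO2. On the log2 scale the fitted differences ran between 1.33 (SE 0.247) for Gm5039 and 1.74 (SE 0.254) for Gm8300, a narrow range beside these errors. The edgeR test called 8 of 8 higher in KO2, where it called 10.1% of all rows. DESeq2 called 7 of 8, all but Gm4027, where it called 8.48% of all rows. With KO1 replicate 1 or KO1 replicate 2 left out, 5 of the 8 were called in each case. The trophectoderm sum was lower and the primitive endoderm sum higher in KO2 than in KO1, by the values above, and their part in the difference was not tested.

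GFP-TRIM66 libraries had lower counts of the models than GFP vector libraries. Summed counts were 75 and 45 in GFP-TRIM66, against 294 and 400 in GFP vector, or 3.70 ± 1.42 CPM against 23.8 ± 5.95 CPM (SD, n = 2 each). The pooled ratio was 0.155 (95% counting interval 0.127 to 0.189), that is 6.44-fold lower with GFP-TRIM66. The groups did not overlap for any of the 8 models, where 26.2% of all rows tested lay wholly lower in GFP-TRIM66.

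Gm8994 had 15 and 11 counts in GFP-TRIM66, against 51 and 88 in GFP vector. Gm5662 had 22 and 6 counts in GFP-TRIM66, against 65 and 80 in GFP vector, and Gm2016 had 14 and 11, against 48 and 56. Both GFP-TRIM66 libraries were low for each, with Gm5662 the most uneven of the 3. Gm5039 had 8 and 5 counts, against 44 and 62, and Gm20767 had 6 and 2, against 25 and 43, in the same order of groups. Gm8300 had 9 and 5 counts in GFP-TRIM66, against 41 and 32 in GFP vector. For the 2 models with the fewest counts, GFP-TRIM66 libraries had 0 and 4 for Gm2022, against 13 and 25 in GFP vector, and 1 and 1 for Gm4027, against 7 and 14. Ratios of the 8 lay between 0.0855 for Gm4027 (0.00972 to 0.350) and 0.216 for Gm2016 (0.134 to 0.336).

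None of these differences passed edgeR's test after adjustment in the fit of this experiment alone: 0 of the 7 models tested were called, where 0.00663% of all rows were called lower, and Gm4027 did not pass the filter on low counts. At an unadjusted p under 0.05 the number was 7 of 7, where 16.7% of all rows were below it. DESeq2 called 4 lower, where it called 2% of all rows, and gave no adjusted p for 2 of the 8. In 1 edgeR fit of all 20 libraries, 8 of 8 were called lower, where 10.8% of all rows were. That fit assumes that a row varies alike in all 10 groups. The 2 groups here varied more than most, as given below, so it can understate their error. Fitted log2 fold changes of the 7 ran between -3.34 (SE 1.07) for Gm2022 and -2.20 (SE 0.540) for Gm2016, with a median of -2.57 beside -0.02 over all rows. The libraries of each of these 2 groups differed from each other more than those of most groups, with a chi-square per degree of freedom over rows of 40.5 in GFP-TRIM66 and 50.1 in GFP vector, against 2.27 to 7.16 in 6 of the other groups. The GFP vector libraries also had more counts of the models than any other control. Nr0b1 was at 37.1 and 93.8 CPM in GFP vector and at 203 and 99.0 CPM with GFP-TRIM66. It did not pass the test (log2 fold change 1.21, SE 0.490, edgeR adjusted p = 0.286). On scales set within each experiment, Nr0b1 was at 150 to 158 CPM in wild type and Dax1 control. It was at 49.4 and 33.5 CPM in the double knockdown control, and at 58.2 to 77.7 CPM with Dax1 knockdown. The part of Nr0b1 in the result was not tested.

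Dax1 knockdown gave the highest levels of the 8 models in the series. Summed counts were 4647 and 4429 with sh1 and 1846 and 1721 with sh2, against 11 and 8 in control. The summed level was 313 ± 16.5 CPM with sh1 and 136 ± 4.31 CPM with sh2, against 0.658 ± 0.110 CPM in control (SD, n = 2 each). Pooled over both hairpins the sum was 346-fold higher than in control (95% counting interval 221 to 575).

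Gm5662 had 889 and 815 counts with sh1 and 381 and 383 with sh2, against 4 and 2 in control, a ratio of 214 (98.1 to 583). Gm2022 had 486 and 416 counts with sh1 and 167 and 172 with sh2, against 2 and 4 in control, a ratio of 107 (49.2 to 293). These are the 2 models with more than 3 control counts, and so the 2 whose fitted values can be used, a log2 fold change of 7.57 (SE 0.206) for Gm5662 and 6.52 (SE 0.259) for Gm2022.

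The other models were at 0 to 3 counts over both control libraries, and their ratios are held only within wide intervals. Gm8994 had 758 and 793 counts with sh1 and 300 and 266 with sh2, against 2 and 1 in control, a ratio of 367 (125 to 1780). Gm2016 had 739 and 706 counts with sh1 and 279 and 247 with sh2, against 1 and 0 in control, a ratio of 1024 (184 to 40481). Gm5039, with 668 and 612 counts with sh1 and 265 and 223 with sh2, also had 1 and 0 in control, as did Gm8300 with 528 and 498 counts with sh1 and 242 and 198 with sh2. For these 3 models, each with a single control count, the lower bound of the interval was 137 or more and the upper bound is not informative.

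Gm20767 had 457 and 461 counts with sh1 and 167 and 188 with sh2 and was at 0 in both controls, which makes it at least 221-fold higher, with the control group set at 3 counts. Gm4027 had 122 and 128 counts with sh1 and 45 and 44 with sh2, against 0 and 1 in control, a ratio of 176 (31.4 to 6979). All 4 knockdown libraries were above both controls for each of the 8 models, where 18.1% of all rows lay wholly higher in knockdown. The edgeR test called 8 of 8 higher, where 16.8% of all 14865 rows tested were called higher and 17.8% lower, and again nothing is read from that count. Their median log2 fold change was 8.67, or 8.01 with Gm20767 at its bound, beside 0.01 over all rows. Both medians rest mostly on models with at most 3 control counts, whose fitted values cannot be used alone.

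**Figure D2:**
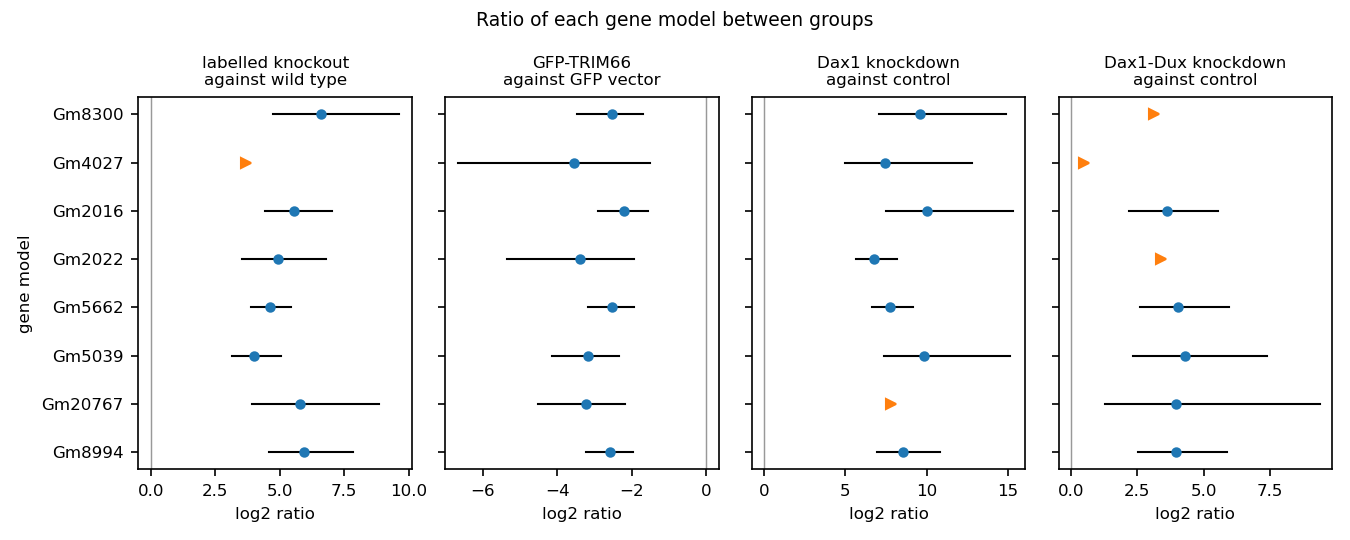
Pooled ratio of each gene model between the groups of the 4 experiments, on a log2 scale; dots are ratios of pooled scaled counts, lines their 95% counting intervals, and triangles lower bounds where the control group was at 0. All dots lie above 0 in the labelled knockout, Dax1 knockdown and double knockdown panels and below 0 in the GFP-TRIM66 panel, and the intervals are widest where the control group had fewest counts.

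The hairpins differed in size of effect. With sh2 the sum reached 0.434 of its level with sh1 (95% counting interval 0.418 to 0.451), and single models lay between 0.393 for Gm4027 and 0.495 for Gm5662. Fitted log2 differences ran between -1.34 (SE 0.209) for Gm4027 and -1.01 (SE 0.0864) for Gm5662, and both sh2 libraries were below both sh1 libraries for every model, where 32.9% of all rows lay wholly lower. The edgeR test called 8 of 8 lower with sh2, where it called 18.2% of all rows. Nr0b1 was higher with sh2 than with sh1 by 0.36 on the log2 scale (SE 0.0627, edgeR adjusted p = 4.57e-05), with 1031 and 1008 counts with sh2, against 897 and 857 with sh1. Summed trophectoderm markers were 110 and 107 CPM with sh2, against 487 and 484 CPM with sh1, and 240 and 225 CPM in control. Most of the sh1 sum was in Krt8 (297 and 287 CPM) and Krt18 (138 and 140 CPM). Cdx2 was higher with sh1 (9.63 and 11.1 CPM) than in control (1.61 and 2.83 CPM). Tfap2c was lower with sh1 (19.3 and 23.4 CPM) than in control (32.0 and 31.8 CPM). Fibroblast markers summed to 285 to 291 CPM with sh1 and 221 to 232 CPM with sh2, against 139 to 142 CPM in control. ES cell markers summed to 5141 and 5067 CPM with sh1, against 7030 and 6778 CPM with sh2, and 6505 and 6575 CPM in control. The part of these marker lists in the result was not tested.

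With Dax1 and Dux both knocked down, the models were above their control but at far lower levels than with Dax1 knockdown alone. Summed counts were 129 and 150 in double knockdown, against 14 and 1 in control, or 10.9 ± 0.936 CPM against 0.547 ± 0.666 CPM (SD, n = 2 each). The pooled ratio was 19.5 (95% counting interval 11.6 to 35.4). It rests on the control library chosen: the log2 ratio of mean levels was 4.31, and it was 7.17 without control replicate 1 and 3.42 without control replicate 2.

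Gm5662 had 35 and 27 counts in double knockdown, against 4 and 0 in control, and Gm8994 had 27 and 32, against 3 and 1. Gm2016 had 17 and 30 counts, against 4 and 0, and Gm5039 had 15 and 22, against 2 and 0. All control counts of Gm5662, Gm2016 and Gm5039 were in control replicate 1. Gm2022 had 15 and 15 counts in double knockdown and Gm8300 had 12 and 13, with both at 0 in the controls, so that Gm2022 was at least 10.5-fold and Gm8300 at least 8.76-fold higher. Gm20767 had 7 and 8 counts, against 1 and 0, and Gm4027 had 1 and 3, against 0 and 0.

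No model passed edgeR's test here, with 0 of the 6 tested called where 0.0904% of all 14387 rows were called higher. At an unadjusted p under 0.05 the number was 6 of 6, where 10.9% of all rows were below it. DESeq2 called 2, where it called 0.83% of all rows higher, and gave no adjusted p for 5 of the 8. Gm4027 and Gm20767 did not pass the filter on low counts. In 1 edgeR fit of all 20 libraries, 7 of 8 were called higher, where 0.999% of all rows were. That fit assumes that a row varies alike in all groups. Chi-square per degree of freedom was 41.8 in this control, so the fit can understate its error. With a control replicate left out, 1 control library remains, assumed to vary like the other group, and calls are not read there. The fitted log2 fold change of Gm5662 was 7.98 without control replicate 1 and 3.01 without control replicate 2, beside 3.95 with both. Every model was higher in both double knockdown libraries than in both controls, where 24% of all rows lay wholly higher. The trophectoderm and ES cell markers that set this experiment apart moved with the groups, as did fibroblast markers, at 384 and 382 CPM in double knockdown, against 106 and 93 CPM in control, and their part in the result was not tested.

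Whether the rise with Dax1 knockdown was larger than that with the double knockdown was asked in 1 fit over all 20 libraries. It carries the same assumption on variance. By edgeR 0 of 8 models were called, where 0.124% of all rows were called higher in the single knockdown, while 5 of 8 had an unadjusted p under 0.05, where 8.97% of all rows did, and DESeq2 called 3, where it called 0.403% of all rows. The differences of log2 fold changes were 4.32 (SE 1.02) for Gm8994, 3.59 (SE 1.34) for Gm5662 and 5.93 (SE 1.65) for Gm2016, in favour of the single knockdown. Gm5039 gave 5.21 (SE 1.63) and Gm20767 7.52 (SE 2.40). Gm8300, at 2.29 (SE 6.97), and Gm4027, at 2.69 (SE 10.25), were not determined. All models but Gm5662 and Gm2022 had at most 3 counts over both Dax1 controls, so their values are loosely held. The Gm5662 value was -0.58 without control replicate 1 of the double knockdown. Gm2022 gave -0.59 (SE 0.863), with its double knockdown control at 0. The 2 experiments had separate controls and differed in marker levels, and the difference cannot be told apart from those.

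**Figure D3:**
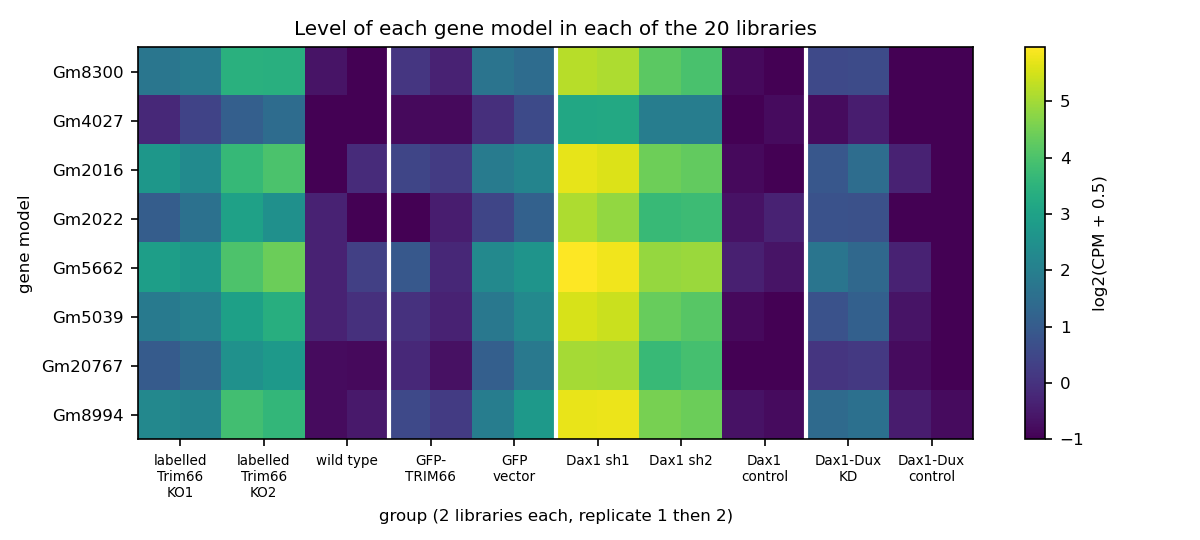
Level of each gene model in each of the 20 libraries as log2(CPM + 0.5), with 2 columns a group and white lines between experiments. The sh1 columns are the brightest for all 8 models, followed by sh2 and KO2, and the Dax1 control, double knockdown control and wild-type columns are darkest.

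On a scale set over all 20 libraries, with the 4 tables put side by side, the summed level ordered the 10 groups as follows. The control of the double knockdown (0.548 ± 0.667 CPM) and the Dax1 control (0.679 ± 0.113 CPM) were lowest, and their libraries overlapped. Wild type of the Trim66 experiment followed at 1.50 ± 0.497 CPM, GFP-TRIM66 at 3.64 ± 1.39 CPM and the double knockdown at 11.0 ± 0.981 CPM, with no overlap between neighbours from the Dax1 control upwards. GFP vector (23.2 ± 5.66 CPM) and KO1 (26.1 ± 0.146 CPM) were next, and the KO1 libraries lay within the range of the GFP vector libraries. KO2 (76.3 ± 4.78 CPM), sh2 (139 ± 4.70 CPM) and sh1 (315 ± 16.7 CPM) were highest and apart from each other (SD, n = 2 in every group). The control groups thus spanned a range from under 1 CPM to 23.2 CPM, and the experiments were not run with a common control.

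The proportions of the models among themselves were steadier than their levels. In the 12 libraries with at least 100 summed counts, Gm5662 made up 18% to 27.1% of the summed count, Gm2016 13.2% to 22.5%, Gm8994 14.5% to 22.0% and Gm5039 9.79% to 15.5%. Gm8300 made up 8% to 13.9%, Gm2022 4.42% to 11.6%, Gm20767 5.33% to 10.9% and Gm4027 0.775% to 3.50%. These are shares of counts not adjusted for transcript length, and they do not rank the models by level. Gm20767 had 9.05% to 10.9% of the summed count in the 4 Dax1 knockdown libraries, 5.70% to 7.69% in the 4 libraries labelled knockout and 5.33% to 5.43% in the 2 double knockdown libraries. Gm2016 had 14.4% to 15.9% in the Dax1 knockdown libraries and 16.7% to 22.5% in the libraries labelled knockout. No test was made of these shares, and the double knockdown shares rest on 129 and 150 counts.

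**Figure D4:**
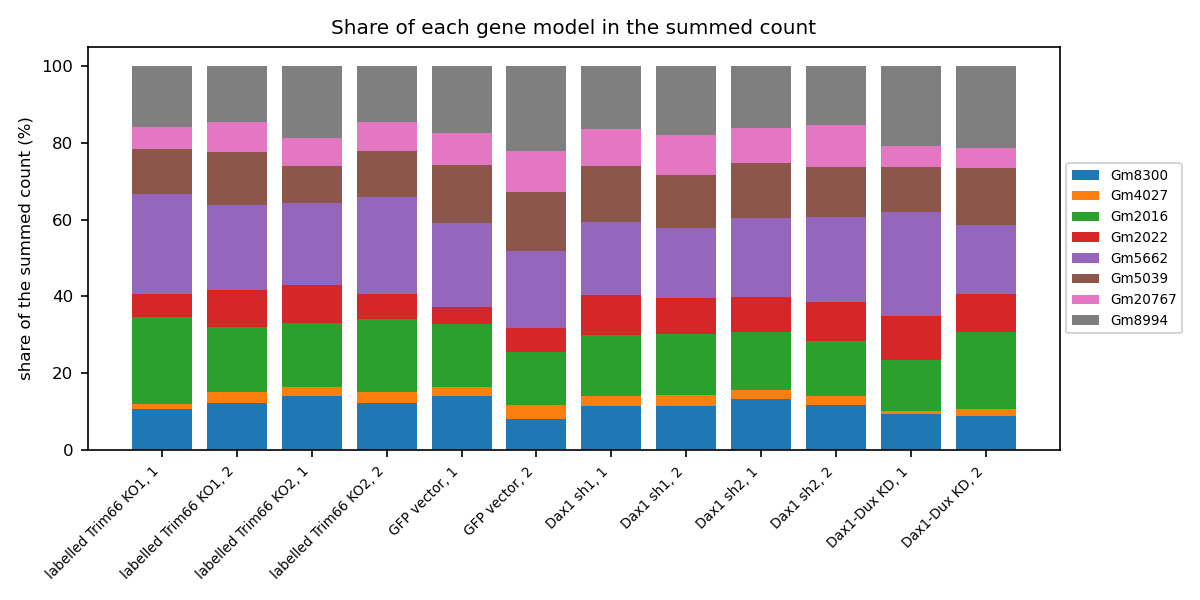
Share of each gene model in the summed count of the 8 rows, in percent, for the 12 libraries with at least 100 summed counts. Gm5662, Gm2016 and Gm8994 are the widest bands in most libraries and Gm4027 is the thinnest in all 12.

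Along the chromosome 12 stretch the tables held 14 rows, the 6 models and 8 others. Of the others, 4 had at most 5 counts over all 20 libraries, among them Oog1 at 0. The remaining 4 were Gm21319, BB287469, Gm1995 and Gm7104. All 4 were called higher both in the libraries labelled knockout and in Dax1 knockdown, where 12.7% and 16.8% of all rows were called. With 0 to 6 counts in wild type and 0 to 2 in Dax1 control, they passed the filter on low counts through the other libraries. They could hardly have been called lower, and nothing is read from the number called. BB287469 had 28 counts in KO1 and 115 in KO2, against 0 in wild type, at least 23.7-fold higher with the 2 lines pooled. In Dax1 knockdown it had 505 counts with sh1 and 155 with sh2, against 1 in control. Gm1995, a transcribed pseudogene, had 41 counts in KO1 and 129 in KO2, against 6 in wild type, a ratio of 14.1 (6.33 to 38.9). Gm21319 had 154 counts with sh1 and 44 with sh2, against 2 in control, a ratio of 51.5 (14.1 to 428). Gm7104 had 71 counts with sh1 and 31 with sh2, and 0 in control. Reads shared with the models could add to any of these 4 rows.

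Of the genes tested on either side of the stretch, Slirp was the only one called in either comparison. Snw1, a splicing and transcription cofactor gene and the nearest row before Gm8300, had a log2 fold change of 0.08 (SE 0.0763) in the libraries labelled knockout and 0.02 (SE 0.0443) in Dax1 knockdown. Adck1, on the other side, had -0.34 (SE 0.120) in the libraries labelled knockout and -0.01 (SE 0.101) in Dax1 knockdown, and neither gene was called. Slirp, which encodes a mitochondrial RNA-binding protein, was called higher in Dax1 knockdown by 0.20 (SE 0.0689) and was not called in the libraries labelled knockout (0.08, SE 0.138).

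**Figure D5:**
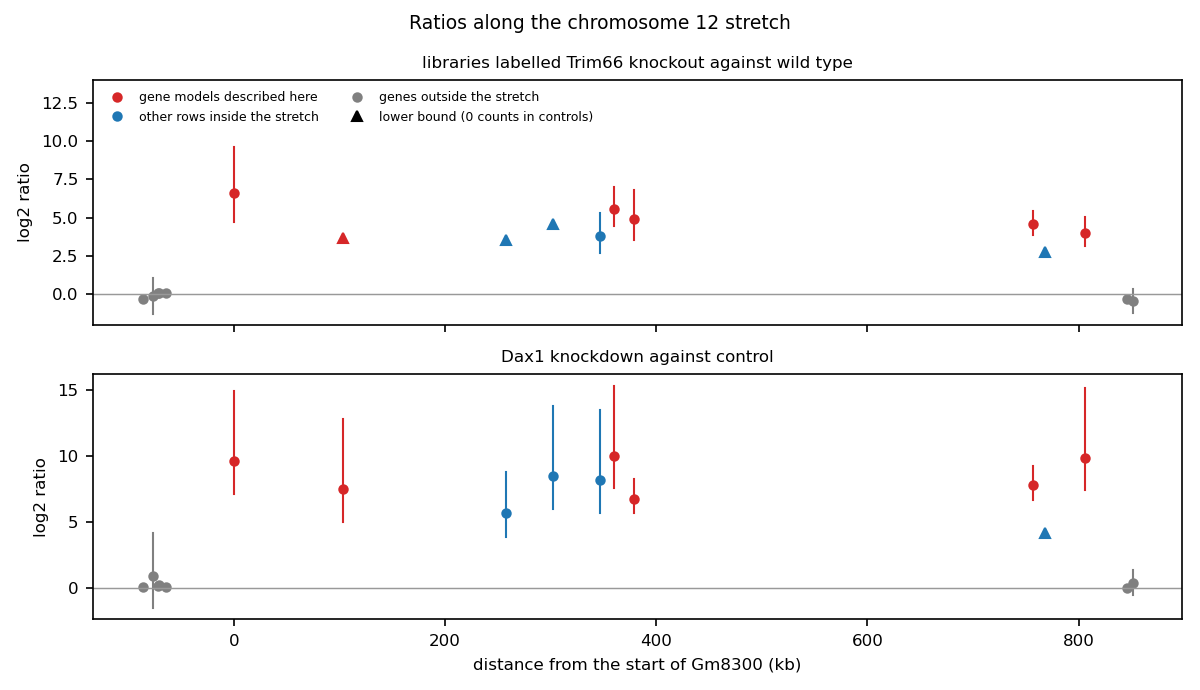
Log2 ratio of each row along the chromosome 12 stretch by distance from the start of Gm8300 in kb, in the libraries labelled knockout (top) and in Dax1 knockdown (bottom); lines are 95% counting intervals and triangles lower bounds, and rows with at most 5 counts in all are left out. The 6 models and the 4 other rows inside the stretch lie above 0, and the genes outside lie near it.

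The promoters gave a second way to find related rows. At least 200 bases of the Gm4027 promoter aligned with those of 3 other genes, all on chromosome 12: BB287469 at 99.6% identity over 259 bases, Gm2046 at 99.1% over 216 bases and Gm21319 at 81.5% over 216 bases. BB287469 and Gm21319 had rows, and both were called higher in the libraries labelled knockout and in Dax1 knockdown, as given above with its limit.

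The Gm8994 promoter aligned with those of 28 other genes on 10 chromosomes at 69.9% to 91.6% identity, of which 17 had rows. Most of these rows were at or near 0 in every library, and few were tested. In the libraries labelled knockout 5 were tested, with 1 called higher and 1 lower, where 12.7% and 10.7% of all rows were. In Dax1 knockdown 7 were tested, with 2 called higher and 1 lower, where 16.8% and 17.8% of all rows were. Among the 13 rows of genes with a single annotated promoter, 1 of 1 tested was called higher in the libraries labelled knockout and 2 of 3 in Dax1 knockdown, with 0 lower. These numbers are too small to read against the share of all rows. The rows called higher, Gm21312 and B020004J07Rik, passed the filter on low counts through the other libraries. They could hardly have been called lower. The 13 rows leave out Sgk1, the row called lower. Gm21312 on chromosome 10, with 80.7% identity, had 85 counts in KO1 and 277 in KO2, against 5 in wild type, and a log2 fold change of 4.87 (SE 0.546). With sh1 it had 2155 counts and with sh2 663, against 2 in control. B020004J07Rik on chromosome 4 (Pramel17 in RefSeq, of the PRAME-like family), with 81.2% identity, had 50 counts with sh1 and 16 with sh2, and 0 in control. Sgk1, a serum- and glucocorticoid-regulated kinase gene, has 1 of its 6 annotated promoters at 91.6% identity and was lower in both, by log2 fold changes of -0.91 (SE 0.0746) in the libraries labelled knockout and -0.75 (SE 0.0372) in Dax1 knockdown. For genes with several promoters, Sgk1 among them, the counts do not tell which was used.

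By the root mean square difference on log2(CPM + 0.5), each library centred on the controls of its experiment, the gene rows closest to the summed models over the 20 libraries were Zscan4f (0.782), Zscan4c (0.902), Gm6763 and Gm21312 (1.01 each) and Zscan4b (1.10), where the median over 13564 rows was 4.20. Gm6763 and Gm21312 had the same counts in all 20 libraries and carry 1 pattern, not 2. Single models lay between 0.979 for Gm5662 and 2.48 for Gm4027 from the sum that they are part of. Because of the added 0.5, this measure depends on how abundant a row is as well as on its pattern, and rows with few counts lie farther from the sum. It is a description over libraries that share depth, controls and experiments. Zscan4f, a zinc finger and SCAN domain gene of the 2-cell embryo, had 69 and 75 counts in KO1 and 348 and 342 in KO2, against 4 and 7 in wild type. With sh1 it had 1538 and 1616 counts and with sh2 531 and 531, against 4 and 2 in control. GFP-TRIM66 libraries had 11 and 12 Zscan4f counts, against 86 and 103 in GFP vector, and the double knockdown had 40 and 31, against 12 and 0 in its control.

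Dux was at low counts throughout. It had 1 and 6 counts in KO1 and 15 and 15 in KO2, against 0 and 1 in wild type, and was called higher for the mean of the lines (log2 fold change 3.56, SE 1.07, edgeR adjusted p = 0.0378), with the wild-type count under the 3 that bound a ratio. With sh1 it had 49 and 54 counts and with sh2 14 and 26, against 0 and 0 in control. GFP-TRIM66 libraries had 0 and 0 Dux counts, against 4 and 11 in GFP vector. The sh1 libraries had the most counts both of Dux and of the models.

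Of a list of 45 other genes of the 2-cell programme, 42 had rows. In the libraries labelled knockout 21 of 23 tested were called higher and 0 lower, where 12.7% and 10.7% of all rows were, with a median log2 fold change of 3.89 (3.56 with 4 genes at their bound) beside 0.01 over all rows. In Dax1 knockdown 31 of 33 were called higher and 0 lower, where 16.8% and 17.8% of all rows were, with a median of 6.92 (4.85 with 12 genes at their bound) beside 0.01 over all rows. Genes at 0 in the controls passed the filter on low counts through the other libraries alone and could only be called higher. The numbers called are therefore not read against the share of all rows. Zfp352, a zinc finger gene of the 2-cell embryo, had 4 and 4 counts in KO1 and 20 and 15 in KO2, and 0 in both wild-type libraries. Tcstv3, of the Tcstv genes of chromosome 13, had 45 and 36 counts with sh1 and 30 and 14 with sh2, and 0 in both controls.

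For GFP-TRIM66, 0 of 14 genes of this list were called, where 0.00663% of all rows were called lower. An unadjusted p under 0.05 was found for 11, where 16.7% of all rows had one. DESeq2 gave an adjusted p for 9 and called 5 of them lower, where it called 2% of all rows. The median log2 fold change was -2.53 beside -0.02 over all rows. For the double knockdown 0 of 11 were called, where 0.0904% of all rows were called higher. An unadjusted p under 0.05 was found for 4, where 10.9% of all rows had one. DESeq2 gave an adjusted p for 10 and called 1 of them higher, where it called 0.83% of all rows. The median log2 fold change was 1.64 beside -0.0034 over all rows. Between KO2 and KO1, 14 of 23 were called higher in KO2, where 10.1% of all rows were. Between the hairpins 24 of 33 were called lower and 2 higher with sh2, where 18.2% of all rows were called in each direction. The list was written with earlier results of these data known, and its counts are a description.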

How the data were processed

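RNA-seq counts per gene and per transposable element subfamily were read from 4 tables, 1 for each experiment, with 25574 rows in each. The deposited values are whole-number counts made by the authors. HISAT2 2.1.0, Cufflinks 2.2.1, Trim Galore, Bowtie2 and other tools, and the build mm10, are named in the submitters' processing notes without a role; for the counting tool, the strand setting and the reads with several matches, nothing is stated in the sources used here. Such reads may have been dropped or divided, which touches every value of multicopy genes. Of the gene names, 27 had been turned into dates in the tables. The 9 ChIP samples were not analysed here.

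The members and lists were chosen with earlier results of these data known. Counts were fitted in R 4.3.3 with edgeR 4.0.16 (TMM scaling, filterByExpr, quasi-likelihood test), each experiment alone, genes and elements together, with Benjamini-Hochberg adjustment over all rows tested and a threshold of 0.05. CPM are those counts scaled by TMM within the experiment. Ratios pool counts over a group and carry exact binomial 95% intervals (scipy 1.17.1); a group at 0 was set at 3 counts, over the group. Genes could be named as members, as the 5 rows most like their sum, as targeted genes, or as 5 fixed examples of the 2-cell list; rows of the chromosome 12 stretch, its flanks and the promoter matches were named after their values were seen. Gene positions and promoters are those of RefSeq (GRCm38.p6), in which 24286 gene names (99.56%) matched. Promoters were aligned with blastn 2.17.0. Alternatives were median-ratio scaling, no filter, DESeq2 1.42.0, genes alone, a replicate block, 1 fit of all libraries, each library left out, and other sums. The fit was tested on simulated data. Chi-square per degree of freedom between the 2 libraries of a group was 2.27 to 50.1, so no pair agreed within sampling noise. Same-numbered libraries deviated together with correlations of -0.578 to 0.282, and the numbers were not taken to pair the samples.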

Additional observations from a re-analysis of the deposited data

Results flagged for a closer look

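The response of every model differed between the lines labelled Trim66 knockout, by a direct edgeR test in the same fit. That test called 10.1% of all rows higher in KO2. DESeq2 called 7 of 8, with Gm4027 not called, where it called 8.48% of all rows. The log2 difference, KO2 minus KO1, was 1.41 for Gm2016, 1.59 for Gm2022, 1.70 for Gm4027, 1.49 for Gm5662, 1.74 for Gm8300, 1.33 for Gm5039, 1.67 for Gm20767 and 1.65 for Gm8994. Trim66 itself had 33 and 48 counts in KO2, against 35 and 38 in KO1.

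The response also differed between the Dax1 hairpins, by an edgeR test that called 18.2% of all rows lower with sh2. The log2 difference, sh2 minus sh1, was -1.31 for Gm2016, -1.27 for Gm2022, -1.34 for Gm4027, -1.01 for Gm5662, -1.08 for Gm8300, -1.25 for Gm5039, -1.23 for Gm20767 and -1.31 for Gm8994. The models may share reads and were chosen with these data known, so the 8 values are not separate observations.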

How the results depend on the processing

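The number of models called was 8 of 8 under each alternative for the libraries labelled knockout, for Dax1 knockdown and for sh2 against sh1. For GFP-TRIM66 the number called lower, 0 by the edgeR test, was 4 by DESeq2 and 8 with all 20 libraries in 1 fit, and 0 to 1 with a library left out, the 1 without GFP-TRIM66 replicate 1. For the double knockdown it was 0, with 2 by DESeq2 and 7 with all 20 libraries in 1 fit. Calls are not read here with 1 control library left. The fitted Gm5662 value, 3.95 with both controls, was 7.98 without control replicate 1 and 3.01 without control replicate 2. KO2 against KO1 gave 8, with 7 by DESeq2, and 5 to 8 with a library left out. Single against double knockdown gave 0, with 2 without a filter, 3 by DESeq2 and 0 to 3 with a library left out. Here Gm2022, at -0.59, reversed to 0.13 by DESeq2 and 0.03 without Dax1 control replicate 2 (-1.03 to 0.03 with a library left out), and Gm5662, at 3.59, reversed to -0.58 without double knockdown control replicate 1 (-0.58 to 4.52). The cause was not tested. The fit of all 20 libraries assumes that a row varies alike in all groups, which the replicates did not. The log2 ratio of the summed level was 4.79 to 5.49 (labelled knockout), -3.13 to -2.32 (GFP-TRIM66), 8.18 to 8.59 (Dax1 knockdown) and 3.42 to 7.17 (double knockdown) with a library left out.

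A replicate block left the counts of models called at 8 for the libraries labelled knockout, 0 for GFP-TRIM66, 8 for Dax1 knockdown and 0 for the double knockdown, and changed no other call count. With the replicate numbers of the GFP-TRIM66 experiment crossed, an alternative chosen after seeing the data, 7 of 7 were called. The share of all rows called in that fit was not counted, and nothing is read from the 7. Adding all rows of the chromosome 12 stretch to the sum, also chosen after seeing the data, gave 5.10, -2.67, 8.29 and 4.46 for the 4 experiments in the order above. A sum that added 4 further rows listed as sequence relatives gave 5.17, -2.69, 8.41 and 4.38. Relatives found by protein identity could not be added, for want of protein sequences. Control counts of 0 to 6 per model set the width of most ratios.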
